A study of Homo sapiens with 4 samples.

Results

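The long noncoding RNAs *MALAT1*, *NEAT1*, *PVT1*, *KCNQ1OT1*, *TUG1*, *NORAD*, *MIR17HG* and *HOTAIRM1* were followed in leukemia cells treated with SF1-8, an inhibitor of the UHM domain of the splicing factor U2AF1. They were chosen by name as 8 of the 64873 entries of the expression table, and where several entries name a symbol, that of the highest mean count was used. RNA was sequenced from K562, an established human erythroleukemia cell line, all libraries come from cells that overexpress U2AF1 with the S34F mutation, and no library analysed here lacks the mutant. Controls (2 libraries) received the solvent DMSO and treated cells (2 libraries) 30 μM SF1-8, each over 48 h, and values of a pair are given below in the order of library 1 and 2. Ribosomal RNA was depleted and the libraries were made from total RNA, so that RNAs with no poly(A) tail can be counted. The labels do not say whether the libraries of a group come from separate cultures, so the tests measure the spread between these libraries, which may be technical.

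Long noncoding RNAs act as RNA molecules and not through a protein. *MALAT1* collects in nuclear speckles, the bodies that hold splicing factors, and *NEAT1* is the scaffold of paraspeckles, nuclear bodies built around its long isoform. *KCNQ1OT1* is transcribed antisense within *KCNQ1* and silences an imprinted domain from the paternal chromosome. *PVT1* lies next to *MYC*, *HOTAIRM1* lies in the *HOXA* cluster, *MIR17HG* is the precursor of the miR-17-92 microRNAs, *TUG1* is a widely expressed RNA first described in the retina, and *NORAD* binds the Pumilio proteins and is known mainly from the cytoplasm.

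The label of the set as abundant nuclear RNAs held only in part. By mean FPKM, which is a level per length, *MALAT1* ranked 111 and *NORAD* ranked 162 among all entries, whereas *PVT1* ranked 13928 and *KCNQ1OT1* ranked 15918. The FPKM rests on a length of 25110 nt for *PVT1* and 90622 nt for *KCNQ1OT1*. A low rank per length thus need not mean few counts. *HOTAIRM1* was listed at 0 in all 4 libraries. The 8 entries held 0.267% to 0.366% of all counts of a library.

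*NEAT1* and *MALAT1* are neighbours on chromosome 11 that share an unusual 3′ end, which is cut by RNase P and closed by a triple helix of an A-rich end with U-rich tracts. The last 100 bases of the long *NEAT1* transcript are shown with the 100 bases of the *MALAT1* transcript that close with the same 11 bases. A link between this end and the levels of the RNAs was not tested. Capitals mark the last 11 bases of *NEAT1* and the longest run that both stretches share before them. Positions are chr11:65445441-65445540 and chr11:65506017-65506116 of GRCh38, plus strand. The *NEAT1* stretch lies beyond the end of the *NEAT1* entry of the expression table, at 65440800.
NEAT1: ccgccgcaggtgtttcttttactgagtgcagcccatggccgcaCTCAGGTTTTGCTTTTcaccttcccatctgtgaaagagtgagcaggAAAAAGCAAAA
MALAT1: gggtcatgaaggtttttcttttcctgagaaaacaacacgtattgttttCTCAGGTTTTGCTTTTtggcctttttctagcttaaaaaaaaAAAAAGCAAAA
The shared run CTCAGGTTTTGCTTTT is 16 bases long. On the sense strand of the longest transcript of each of 16066 long noncoding RNA genes in GENCODE version 29, it was found in 2, which are these genes. As the run was taken from these stretches, both genes had to match. The run AAAAAGCAAAA was found in 67 of them, or 0.417%.

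*MIR17HG* carries 6 microRNA hairpins, whose main mature products are shown because the host transcript is the only readout of the cluster in these libraries. Capitals mark the seed, bases 2 to 8, which pairs with target mRNAs.
miR-17-5p: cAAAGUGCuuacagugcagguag
miR-20a-5p: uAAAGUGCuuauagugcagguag
miR-18a-5p: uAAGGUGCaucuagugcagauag
miR-19a-3p: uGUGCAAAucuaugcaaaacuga
miR-19b-3p: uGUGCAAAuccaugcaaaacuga
miR-92a-3p: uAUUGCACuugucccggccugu
The sequences are from RefSeq on GRCh38.p14. The 6 microRNAs have 4 distinct seeds, with 1 seed shared by miR-17-5p and miR-20a-5p and another by the miR-19 pair. They span 765 bases from chr13:91350618 to chr13:91351382 on the plus strand.

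*NORAD* is shown by sites of the 8-letter Pumilio motif TGTANATA, searched on the sense strand with overlaps allowed. The 5339-nt transcript holds 15 matches, or 2.81 per kb, and 5 of them are printed with the motif in capitals and the position of its first base in the transcript, on the minus strand of GRCh38, spread from the first to the last match.
Site at position 761, chr20:36050185-36050208: aaggcctgTGTATATAatatgaaa
Site at position 1140, chr20:36049806-36049829: cactactgTGTATATAgttgacaa
Site at position 1241, chr20:36049705-36049728: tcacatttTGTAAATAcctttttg
Site at position 2972, chr20:36047974-36047997: ccctactgTGTATATAgcggacaa
Site at position 4599, chr20:36046347-36046370: agcctattTGTAAATAcctttgtt
Among 283 long noncoding RNA genes whose longest transcript has at least 5000 nt, the median was 0.049 matches per kb, and 2 had as many per kb as *NORAD* or more, itself included. Of all 16066 genes, 9.57% held at least 1 match. *NEAT1* held 6 matches, *KCNQ1OT1* 9, and *TUG1* and *MIR17HG* 2 each, while none was found in the longest transcripts of *MALAT1*, *PVT1* and *HOTAIRM1*. A match describes letters and does not show binding.

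Total counts were 45522905 in DMSO 1 and between 64305922 and 67554610 in the other libraries. Despite the depletion, ribosomal RNA loci held 11.7% of counts in DMSO 1 and 12.4% to 14.9% in the other libraries. Small structured RNAs held a smaller share of DMSO 1 than of the other libraries, with 0.349% against 0.557% to 0.776% for *RN7SK*, so DMSO 1 stood apart beyond its depth. The erythroid markers marked all libraries as K562-like, with *GATA1* at 75.9 to 79.1 FPKM. Summed FPKM over the 10 of 11 stromal markers with an entry of their own was 10.6 and 5.23 in the DMSO pair against 2.75 and 0.729 in the SF1-8 pair. Over 8 lymphoid and monocyte markers it was 12.1 and 9.69 against 9.50 and 9.41. Among these, *CD3D* read 3.82 to 5.14 FPKM and *LYZ* 4.08 to 5.80. Across all entries, 11 of 26167 passed an adjusted p of 0.05 in edgeR, 6 of them lower and 5 higher with SF1-8.

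**Figure D1:**
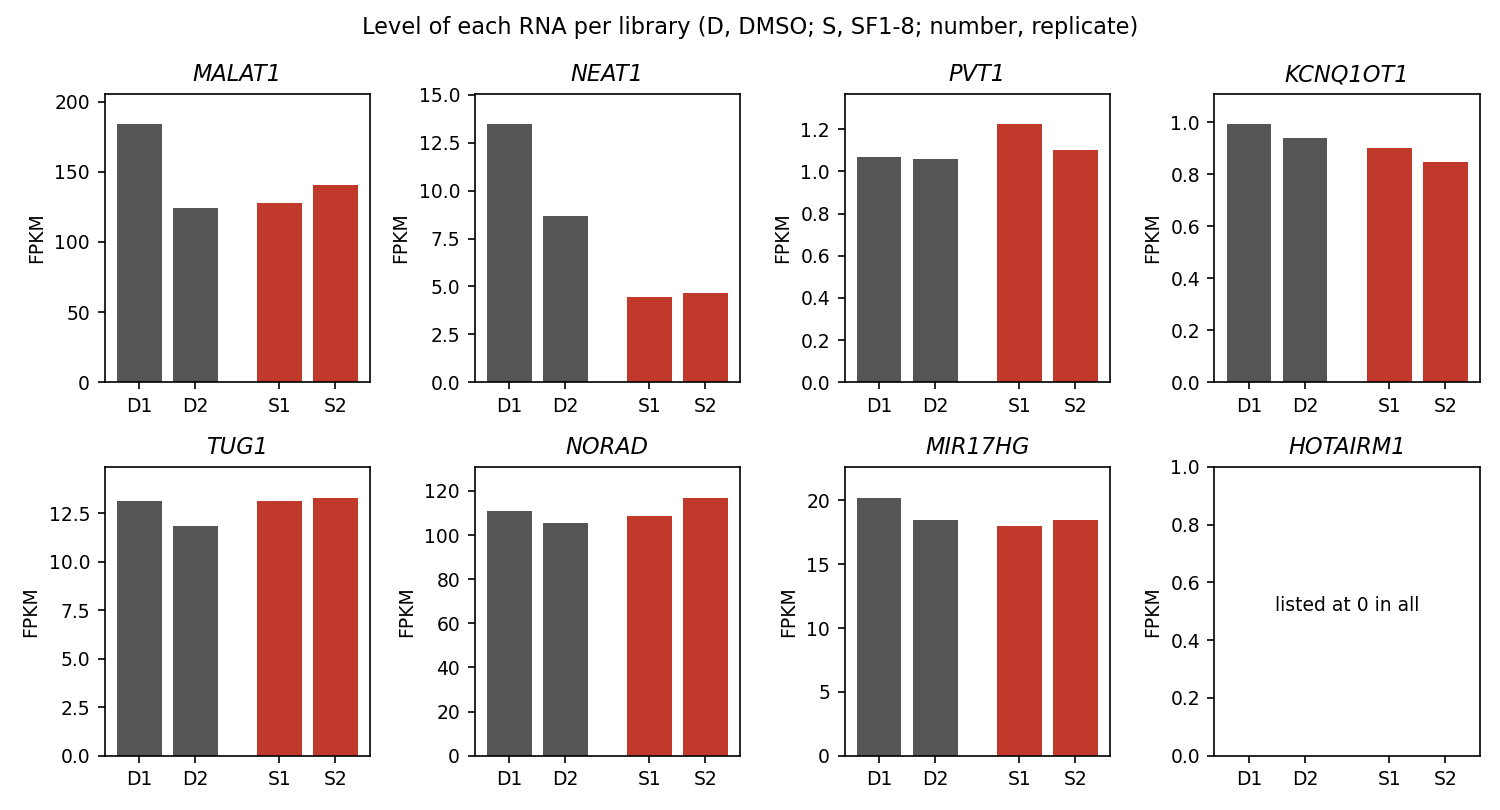
FPKM (vertical axes, each from 0) of the 8 RNAs in every library, with DMSO libraries 1 and 2 in grey and SF1-8 libraries 1 and 2 in red. *NEAT1* read 13.5 and 8.65 with DMSO against 4.45 and 4.68 with SF1-8, while *HOTAIRM1* was listed at 0 throughout.

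Of the 8 RNAs, 7 passed the filter on low counts and were tested, and *HOTAIRM1* did not. With SF1-8, *NEAT1* stood 2.36-fold below DMSO, and the other 6 RNAs lay within 0.17 of no difference on the log2 scale. At an adjusted p of 0.05, 0 of the 7 were called in edgeR, where 0.042% of all entries were (0.0229% lower and 0.0191% higher). At an unadjusted p under 0.05 there was 1, *NEAT1*, where 4.33% of all entries passed (2.54% lower and 1.78% higher), and DESeq2 also called 1, again *NEAT1*, where it called 0.652% of the 25152 entries to which it gave an adjusted p. In limma on log2(FPKM + 1), 0 of the 7 and 0% of all entries were called. Apart from *NEAT1*, each of the 7 had an adjusted p of 0.970 in edgeR, as had the lowest member of every gene list below. No gene of these lists was called by limma. Against the same share of 0.652%, DESeq2 called *THBS1* among the microRNA targets, *COL1A2* and *LUM* among the stromal markers, and 0 in each other list. The median log2 fold change was -0.055 over the 7 and -0.011 over all entries, with 4 of the 7 lower and 3 higher. On the scale of CPM, counts divided by TMM-scaled library size, the groups did not overlap for 6 of the 7, 3 lower and 3 higher with SF1-8, where 35.5% of all entries did not overlap (18.1% lower and 17.3% higher). On the FPKM scale the groups did not overlap for 4 of the 7, where this held for 34.2% of all entries tested.

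**Figure D2:**
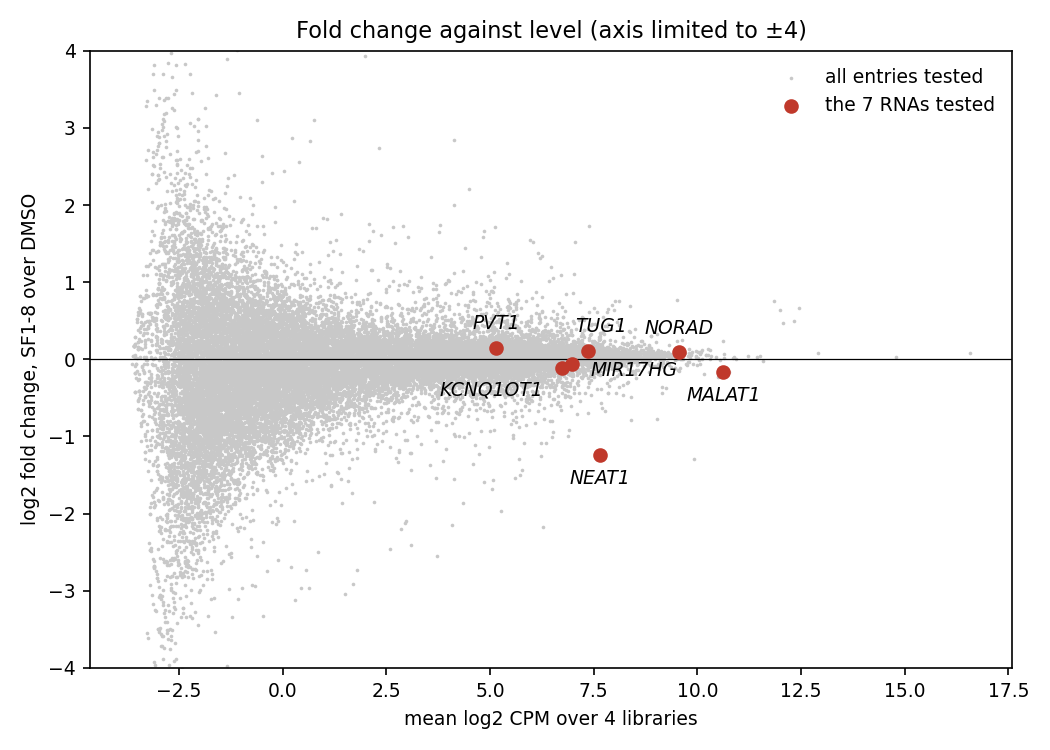
Log2 fold change of SF1-8 over DMSO (vertical axis) against mean log2 CPM over the 4 libraries (horizontal axis) for the 26167 entries tested, with the 7 RNAs tested in red. *NEAT1*, at -1.24, lies below nearly all entries of its level, and the other 6 lie close to 0.

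*NEAT1*, whose entry runs on chromosome 11 of GRCh38 from 65422774 to 65440800 on the plus strand, had an FPKM of 13.5 and 8.65 in the DMSO pair against 4.45 and 4.68 in the SF1-8 pair. Both SF1-8 libraries lay below both DMSO libraries, and the DMSO libraries differed from each other far more than the SF1-8 libraries did. The mean was 11.1 ± 3.40 (SD, n = 2) in the DMSO pair, against 4.57 ± 0.161 (SD, n = 2) in the SF1-8 pair. The log2 fold change was -1.24 (standard error, SE, 0.188, unadjusted p = 0.00108, adjusted p = 0.457) in edgeR. Its p was the 61st smallest of 26167. Among the 9440 entries with a mean CPM of at least 10, 24 had a more negative log2 fold change.

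The call on *NEAT1* depended on the tool, and its direction did not. DESeq2 gave a log2 fold change of -1.24 with an adjusted p of 1.79e-06, and the adjusted p over the alternatives ran from there to 0.685 with limma on log2(FPKM + 1). Without DMSO 1, the library in which *NEAT1* was highest, the log2 fold change was -0.93 (adjusted p = 0.120) in edgeR. Without DMSO 2 it was -1.49 (adjusted p = 0.0450), the only fit with that test in which *NEAT1* passed the threshold. In each of these fits the lone library is assumed to vary like the other group.

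The *NEAT1* entry also names *AP000944* and the microRNA gene *MIR612*. Its FPKM rests on a length of 22515 nt, taken from the ratio of count to FPKM relative to that of *NORAD*, which is near the 22743 nt of the long isoform and above the 18027 bases that the entry spans. The annotated gene runs 4740 bases beyond the end of the entry. The value is a total, and the short isoform, which shares its start with the long isoform, is not separated from it.

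*MALAT1*, on chromosome 11 from 65497688 to 65506469 on the plus strand, had the highest FPKM of the set, with 184 and 124 in the DMSO pair against 128 and 140.3 in the SF1-8 pair. DMSO 1 was the highest and DMSO 2 the lowest library, so the groups overlapped. The mean was 154 ± 42.1 (SD, n = 2) for DMSO against 134 ± 9.02 (SD, n = 2) for the treated cells, at a log2 fold change of -0.17 (SE 0.164). Without DMSO 1 it turned to 0.096, so its direction rests on that library. A minus-strand entry of 307 bases inside *MALAT1* had 62 counts in SF1-8 1 and 0 in the other libraries, and was not tested. Another entry that names *MALAT1*, of 620 bases and 23 to 74 counts a library, had a log2 fold change of 0.86 (SE 0.569).

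*NEAT1* and *MALAT1* were both high in DMSO 1, by 1.47 and 1.40 times their CPM in DMSO 2, where the median entry of at least 10 CPM had a ratio of 0.985. Ratios at or above that of *MALAT1* were uncommon, as 4.21% of such entries exceeded it. The ratio of *NEAT1* to *MALAT1* counts within a library, chosen after the values were seen, was 0.189 and 0.180 in the DMSO pair against 0.0901 and 0.0861 in the SF1-8 pair. Libraries of 1 group thus had nearly the same ratio even where the RNAs themselves differed. Against *NORAD*, the ratio of *NEAT1* counts was 0.512 and 0.346 in the controls against 0.173 and 0.169 in treated cells. The ratio of *MALAT1* to *NORAD* was 2.71 in DMSO 1 and 1.92 to 1.96 in the other libraries, so DMSO 1 alone stood apart in it.

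Most of the stromal markers were lower with SF1-8, as *NEAT1* was. Of the 10 stromal markers with their own entry, 8 had a lower FPKM in both SF1-8 libraries than in both DMSO libraries. This held for 20% of all entries tested. In DMSO 1, 8 of the 10 had their highest FPKM. Among entries of at least 10 CPM, 20.2% had their highest CPM in that library. That share is on another scale and over higher levels than those of markers such as *DCN* and *LUM*, so it is not a direct comparison. *COL1A1* was at 5.39 and 2.60 FPKM in the controls against 1.21 and 0.0982 in treated cells. *LUM* was at a low level, with 0.170 and 0.0870 with DMSO and 0 in both SF1-8 libraries. *DCN* was at 0.0815 and 0.0161 in the controls against 0.00328 and 0 in treated cells. *THY1* did not follow, at 0.132 and 0.0773 in the controls against 0.191 and 0.0366 in treated cells. Its log2 fold change was 0.15 (SE 0.787). *FAP* was at 0.0187 in DMSO 1 and 0 elsewhere, and was not tested. Of the 9 other markers with their own entry, all tested, 6 were lower at an unadjusted p under 0.05 in edgeR, where 2.54% of all entries were. An adjusted p of 0.05 was passed by 0 of them. *PDGFRA* shares its entry with *FIP1L1* and stays out of these counts. Their part in the *NEAT1* result was not tested. In the DMSO libraries the stromal sum was 10.6 and 5.23, with *NEAT1* at 13.5 and 8.65 FPKM. In the SF1-8 libraries the sum was 2.75 and 0.729, with *NEAT1* at 4.45 and 4.68. In bulk RNA, fewer cells of a type and less RNA per cell cannot be told apart.

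**Figure D3:**
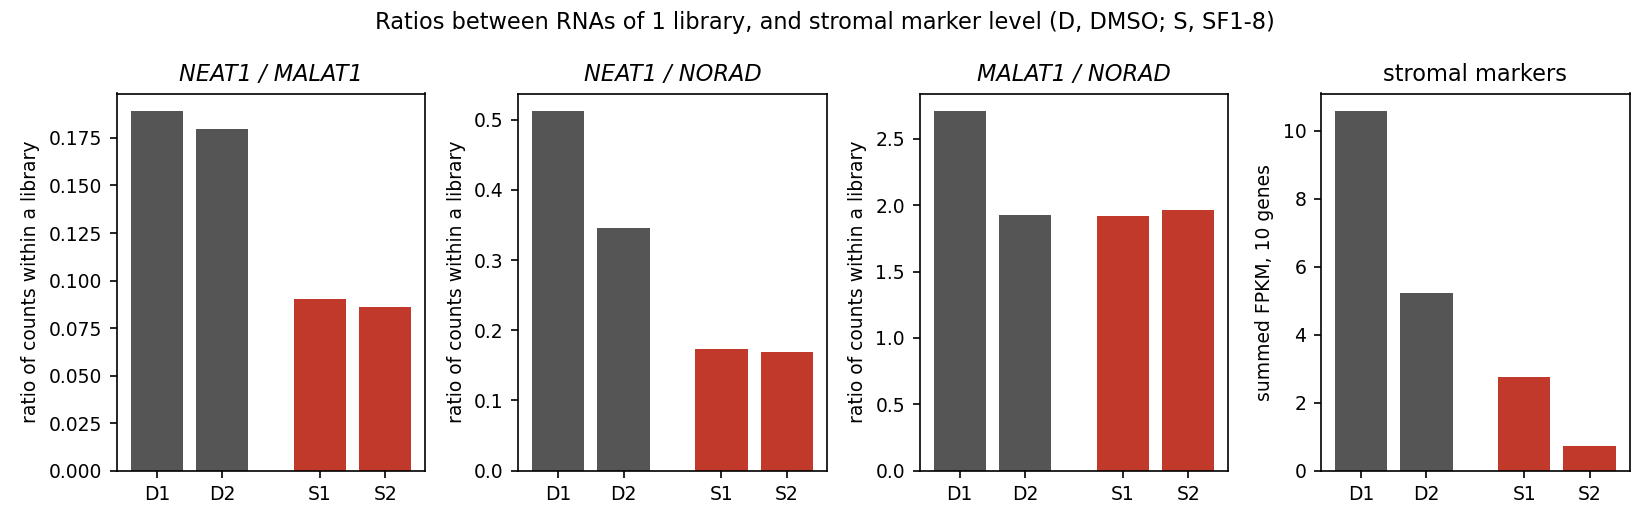
Ratio of counts between a pair of RNAs of the same library (left 3 panels) and summed FPKM of 10 stromal marker genes (right panel), per library, with DMSO in grey and SF1-8 in red. *NEAT1* over *MALAT1* was 0.189 and 0.180 in the controls against 0.0901 and 0.0861 in treated cells.

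The mRNAs of the proteins that build paraspeckles lay closer to no difference than *NEAT1* did. Of 18 such mRNAs tested, 0 passed an adjusted p of 0.05 in edgeR, 6 were lower and 12 higher, and the median log2 fold change was 0.017. At an unadjusted p under 0.05 there was 1, where 4.33% of all entries passed. This was *RBM14*, a protein needed for paraspeckle assembly, whose entry also holds *RBM4*. It had an FPKM of 10.3 and 10.8 in the controls against 7.61 and 5.73 in treated cells, and a log2 fold change of -0.63 (SE 0.153). Among the core proteins that bind *NEAT1*, *SFPQ* had a log2 fold change of 0.024 and *PSPC1* of 0.12. *NONO* read 54.5 FPKM in DMSO 1 and 53.7 in SF1-8 1 but 29.8 in DMSO 2 and 31.1 in SF1-8 2, so that libraries of the same number were alike and the groups overlapped.

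**Figure D4:**
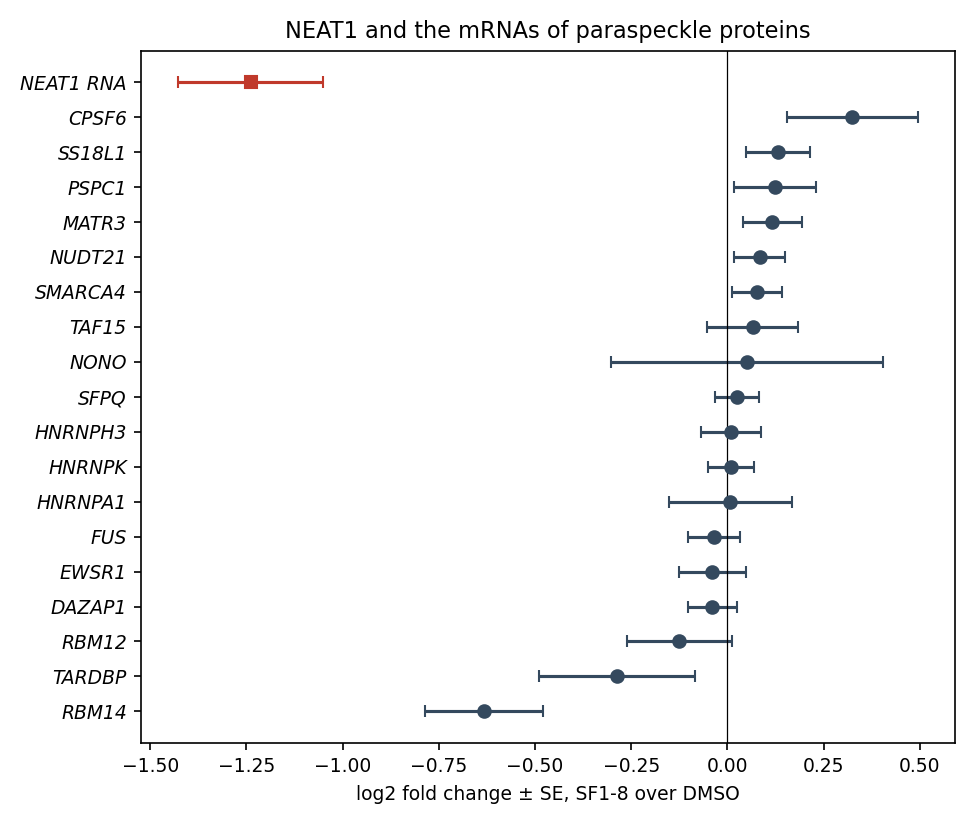
Log2 fold change with its standard error (horizontal axis, SF1-8 over DMSO) for *NEAT1* RNA (red) and the mRNAs of 18 paraspeckle proteins (dark). *NEAT1* lies at -1.24 and the mRNAs lie between -0.63 and 0.32.

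For the 13 nuclear speckle proteins, the partners of *MALAT1* in its nuclear body, the log2 fold changes lay between -0.14 and 0.061 with a median of -0.042, and 0 passed an adjusted p of 0.05 and 0 an unadjusted p under 0.05 in edgeR. The 22 genes of nuclear RNA decay and noncoding RNA 3′ ends, among them the exosome subunits, had a median of 0.0017, with 11 lower, 11 higher and 0 at an adjusted or unadjusted p under 0.05.

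The genes around *NEAT1* and *MALAT1* lay on both sides of no difference. Of 13 neighbouring entries tested from *CAPN1* to *RELA*, 6 were lower and 7 higher, with a median log2 fold change of 0.0079, and 0 passed at an adjusted or unadjusted p under 0.05 in edgeR. *FRMD8*, whose entry ends 9.25 kb before *NEAT1*, had a log2 fold change of 0.16 (SE 0.160). Between both RNAs, an *AP000769* entry 14.5 kb beyond *NEAT1* had -0.31 (SE 0.221). An entry of the same name 0.372 kb before *MALAT1*, at no more than 1.58 FPKM, had 1.13 (SE 0.895).

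The 3 entries of at least 10 CPM nearest to *NEAT1* by Euclidean distance over the 4 centred log2 CPM values, among 9439, were *NKIRAS1* at 0.217, *CCDC69* at 0.222 and *RNF11* at 0.247. *RNF11* had an FPKM of 10.4 and 8.34 in the controls against 4.19 and 4.30 in treated cells, in the same order of libraries as *NEAT1*. With 4 libraries this likeness is a description.

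*NORAD*, on chromosome 20 from 36045618 to 36051018 on the minus strand, had an FPKM of 111 and 105 in the DMSO pair against 109 and 117 in the SF1-8 pair. The groups overlapped on this scale, and on the CPM scale both SF1-8 libraries, at 750.3 and 799.8, lay above the 728 and 730.2 of DMSO. The log2 fold change was 0.089 (SE 0.0621). Its direction depended on the scaling, as it was -0.074 with FPKM rescaled to TPM, where the median of all entries was -0.13. Of 7 mRNAs of proteins that bind *NORAD*, 1 was lower and 6 higher, the median log2 fold change was 0.026, and 0 passed an adjusted p of 0.05 in edgeR. An unadjusted p under 0.05, which 4.33% of all entries had, was found for 1. This was *PRPF19*, a splicing factor, at 54.6 and 54.2 FPKM in the controls against 64.8 and 61.0 in treated cells. The tested neighbours were both weakly expressed. *CNBD2*, 14.9 kb away, had at most 0.207 FPKM, and *EPB41L1*, 40.5 kb away, had 0.586 to 0.678.

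*TUG1*, on chromosome 22 from 30969245 to 30978843 on the plus strand, had an FPKM of 13.1 and 11.8 in the DMSO pair against 13.2 and 13.3 in the SF1-8 pair. The SF1-8 values were the highest, but DMSO 1 was closer to them than to DMSO 2. The log2 fold change was 0.11 (SE 0.0695), and -0.049 on the TPM scale. *MORC2*, whose entry ends 0.471 kb before that of *TUG1*, had an FPKM of 5.39 and 4.87 in the controls against 3.86 and 4.79 in treated cells. Its log2 fold change was -0.22 (SE 0.121). On the other side, the entry of *SMTN*, 72.8 kb away, had -0.20 (SE 0.102).

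*TUG1* and *KCNQ1OT1* have both been tied to the histone methyltransferases PRC2 and G9a. The 9 genes of these enzymes had log2 fold changes between -0.065 and 0.19 with a median of 0.046, and 0 passed at an adjusted or unadjusted p under 0.05 in edgeR.

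*KCNQ1OT1*, an unspliced RNA on chromosome 11 from 2608328 to 2699994 on the minus strand, had an FPKM of 0.991 and 0.940 in the DMSO pair against 0.901 and 0.845 in the SF1-8 pair. The SF1-8 values lay below both DMSO values, and the log2 fold change was -0.12 (SE 0.0774). It turned to 0.081 in limma with quantile normalization. The FPKM rests on a length of 90622 nt, so that a low level per length still stood for 5247 to 6972 counts, more than *PVT1* had. Strand handling is not known, so it and intronic RNA of *KCNQ1* cannot be told apart, and the *KCNQ1* entry itself had at most 0.0224 FPKM.

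Of 13 genes of the imprinted domain and the neighbouring *IGF2* and *H19*, 11 were tested, 5 lower and 6 higher, with a median log2 fold change of 0.023. By edgeR's quasi-likelihood test 0 passed an adjusted p of 0.05 and 2 an unadjusted p under 0.05, both lower. Of all entries, 4.33% passed the latter (2.54% lower). *IGF2*, which encodes a growth factor, had an FPKM of 0.329 and 0.145 in the controls against 0.0470 and 0.0620 in treated cells, and *TSPAN32* had 0.545 and 0.427 against 0.272 and 0.296. *CDKN1C*, the cell cycle inhibitor silenced by *KCNQ1OT1* on the paternal chromosome, had a log2 fold change of 0.13 (SE 0.315). The nearest tested entries, of *TSSC4* 204 kb away and of *NAP1L4* 173 kb away, had 0.27 (SE 0.199) and 0.19 (SE 0.206). Another *NAP1L4* entry, of higher level at 9.06 to 9.27 FPKM, had 0.023 (SE 0.0711).

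*PVT1*, whose entry spans chromosome 8 from 127794526 to 128187101 on the plus strand and also names microRNAs such as *MIR1204* and the snRNA gene *RNVU1-32*, had an FPKM of 1.07 and 1.06 in the DMSO pair against 1.22 and 1.10 in the SF1-8 pair. The SF1-8 values were the highest, that of library 2 by a small margin. The FPKM of *PVT1* rests on a length of 25110 nt, where its longest transcript in GENCODE version 29 has 1699 nt. Its counts ran from 1577 to 2591 a library, or 33.1 to 39.6 CPM. The log2 fold change was 0.15 (SE 0.106), and -0.0079 on the TPM scale. A further 9 short entries of 214 to 688 bases name *PVT1*, 8 of which were tested, and their log2 fold changes ran from -1.34 to 1.44, with 3 to 82 counts a library over the 9. *MYC*, the oncogene 51.6 kb before *PVT1*, read 5.65 and 19.8 FPKM in the DMSO pair against 8.00 and 4.78 in the SF1-8 pair. DMSO 2 alone stood high, so *MYC* varied more between the DMSO libraries than *PVT1* did over all 4. The log2 fold change of *MYC* was -0.99 (SE 0.623). On the other side, *CCDC26*, 447 kb away, had -0.10 (SE 0.178).

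*MIR17HG*, on chromosome 13 from 91347820 to 91354577 on the plus strand, had an FPKM of 20.2 and 18.4 in the DMSO pair against 17.97 and 18.5 in the SF1-8 pair. The groups overlapped on this scale and lay close together. On the CPM scale both SF1-8 libraries, at 121.6 and 124.1, lay below the 129.9 and 125.3 of DMSO. The log2 fold change was -0.055 (SE 0.0711). A second entry of 11329 bases, which starts beyond the annotated end of the gene, read 8.65 and 7.05 FPKM in the controls against 6.68 and 6.79 in treated cells, and its log2 fold change was -0.19 (SE 0.0974). The microRNAs printed above start 2798 bases into the host entry, and their mature forms are not measured in these libraries. The closest tested entries of other genes lie 1092 kb and 7350 kb away and had at most 0.346 FPKM.

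Of 13 mRNAs known as targets of the miR-17-92 seeds, 6 were lower and 7 higher, with a median log2 fold change of 0.022, and 0 passed an adjusted p of 0.05 in edgeR. An unadjusted p under 0.05, which 4.33% of all entries had, was found for 1. This was *THBS1*, a matrix glycoprotein, at 1.17 and 0.783 FPKM in the controls against 0.481 and 0.274 in treated cells. Its order over the libraries is that of the summed stromal markers, whose part was not tested. The 8 genes of microRNA processing, from *DROSHA* to *AGO3*, had log2 fold changes between -0.074 and 0.16, with 0 at an adjusted or unadjusted p under 0.05 by the same test.

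*HOTAIRM1*, on chromosome 7 from 27095647 to 27100265 on the plus strand, was listed at 0 counts in every library. Of the 16 genes of the *HOXA* cluster list, 1 passed the filter on low counts. That was *HOXA-AS2*, an antisense RNA 7.51 kb away, at 0.0115 to 0.0326 FPKM. *HOXA2* was at 0 in all libraries, while *SKAP2*, 231 kb away, read 2.16 to 2.85 FPKM. No comparison between groups can be made for *HOTAIRM1*.

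**Figure D5:**
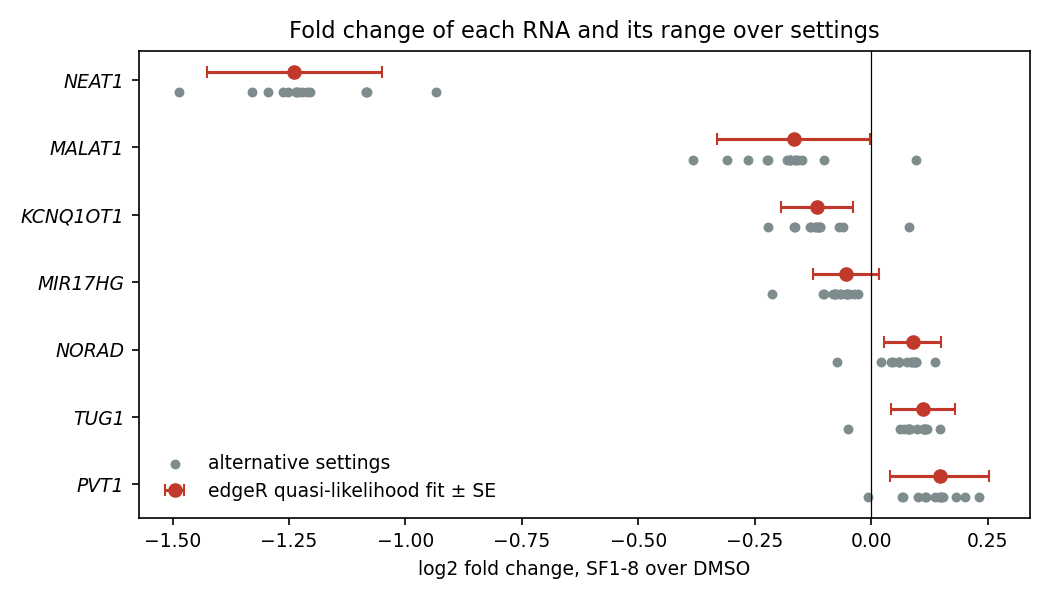
Log2 fold change of SF1-8 over DMSO (horizontal axis) for the 7 RNAs tested, in red with the standard error of the edgeR fit and in grey under each alternative setting. *NEAT1* stays between -1.49 and -0.93, whereas the values of 5 of the other RNAs cross 0 in 1 setting each.

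Ordered by FPKM with DMSO, the RNAs ran from *MALAT1* over *NORAD*, *MIR17HG*, *TUG1*, *NEAT1* and *PVT1* to *KCNQ1OT1*. *TUG1* and *NEAT1* were not separated in this order, since both *TUG1* values lay between those of *NEAT1*. With SF1-8 the order was the same and every neighbouring pair was separated, with *NEAT1* at 4.45 and 4.68 below *TUG1* at 13.2 and 13.3.

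Among 22 other known long noncoding RNAs, 17 were tested, 12 lower and 5 higher in treated cells, at a median of -0.062 on the log2 scale. By edgeR's quasi-likelihood test 0 passed an adjusted p of 0.05 and 4 an unadjusted p under 0.05, 3 lower and 1 higher. Of all entries, 4.33% passed the latter (2.54% lower and 1.78% higher). The largest of these differences were -0.48 (SE 0.168) for *LINC-PINT* and -0.29 (SE 0.103) for *FTX*, a regulator of X inactivation. The 1 that was higher was *CYTOR*, at 0.23 (SE 0.0801). Each of these entries also names other genes.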

How the data were processed

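RNA-seq libraries of K562 cells that overexpress U2AF1 S34F were compared, 2 given DMSO and 2 given SF1-8. The authors deposited 1 table whose columns hold FPKM and estimated counts. The FPKM values are scaled by the authors for entry length and library depth, and stand at 0.0001 where the deposited count is 0, which was read here as 0. The deposited counts are whole numbers, but 4 is the commonest value above 0, so a count may not be 1 read. No separate counting error was computed, but edgeR and DESeq2 treat a count as 1 read in their models. With counts divided by 4, *NEAT1* had a log2 fold change of -1.25 (adjusted p = 0.428) in edgeR. Tools named in the submitters' processing notes are cutadapt, FastQC, Bowtie2, HISAT2 and StringTie, with the build hg38. Versions, order and strand handling are not given in the sources used here. Most entries carry StringTie identifiers, and an entry can hold several neighbouring genes.

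The 2095 entries of 64873 that name no gene, holding 0.358% to 0.421% of counts, entered neither library sizes nor tests. Each symbol was matched to the entry naming it with the highest mean count. Counts were normalised by TMM and filtered by filterByExpr, and 26167 entries were tested by edgeR's quasi-likelihood test (edgeR 4.0.16, R 4.3.3) with Benjamini-Hochberg adjustment over all of them. Standard errors were taken from the F statistic. Alternatives were DESeq2 1.42.0, limma 3.58.1 on log2(FPKM + 1) or log2(FPKM + 0.1), other filters and scalings, the replicate number as a block, and leaving out each library. The edgeR fit with and without the block, DESeq2 and limma were run on simulated counts, limma there on depth-scaled counts and not FPKM. The simulated libraries differed only by scaled depth, random spread and set changes, with no other difference like that of DMSO 1. These runs therefore do not vouch for the fits on the real libraries. The other steps were not tested in this way. The RNAs, the gene lists and the rule for the genes named were chosen with earlier results of these data known. The rule took the 8 RNAs, their nearest tested neighbours, from each list any gene past an adjusted p of 0.05 and the 2 largest differences at an unadjusted p under 0.05, and the 3 entries nearest to NEAT1 over the libraries. Other genes with values fall outside that rule and were picked with their values in view. Examples are NONO, SFPQ, PSPC1, CDKN1C, COL1A1, COL1A2, FAP, THY1, CYTOR, GATA1, RN7SK and HOXA2. Sequences come from RefSeq (GRCh38.p14) for miRNAs and from GENCODE version 29 (GRCh38) for transcripts. Values of a few single genes are not reported here.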

Additional observations from a re-analysis of the deposited data

How the results depend on the processing

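Of 15 alternatives, the direction of *NEAT1* held in 15, with log2 fold changes from -1.49 to -0.93, and that of *MIR17HG* in 15. With FPKM rescaled to TPM the log2 fold change was -0.0079 for *PVT1*, -0.049 for *TUG1* and -0.074 for *NORAD*, and relative to the median of all entries in that setting, -0.13, it was 0.12, 0.083 and 0.058. With quantile normalization *KCNQ1OT1* had 0.081. Leaving out 1 library at a time gave -0.38 to 0.096 for *MALAT1*, and -1.49 to -0.93 for *NEAT1* with adjusted p from 0.0450 to 0.341 in edgeR. With DESeq2, *NEAT1* had -1.24 and was called, so that 1 of the 7 RNAs was called, and leaving out libraries gave 0 to 1.

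The number of all entries called was 164 with DESeq2, 31 with no filter on low counts, 0 with the replicate block, 0 with limma on log2(FPKM + 1), on log2(FPKM + 0.1) and with quantile normalization, 1 with an FPKM above 2 and 1 on the TPM scale, and 0 to 30 when a library was left out. The cause was not tested. Libraries of the same number share only that number (correlation of their deviations 0.016), and the block left *NEAT1* at -1.21 with an adjusted p of 0.457 in edgeR. It changed no call on the 7 RNAs. *PVT1* and *KCNQ1OT1* have no value with an FPKM above 2. An exact two-sided permutation test of 2 against 2 libraries has 0.333 as its smallest p.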
